A study of Gallus gallus with 6 samples.

Results

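The genes described here are 9 members of the fibroblast growth factor (FGF) family and its receptors, FGF2, FGF3, FGF8, FGF12, FGF13, FGF19, FGFR1, FGFR2 and FGFR3. They were picked by name, and every probe set annotated to 1 of these symbols alone was taken. This gave 20 of the 37690 probe sets on the array for 9 of 13008 named genes, and each gene had at least 1. The induced samples were chick epiblast of the area opaca, the outer extraembryonic part of the embryonic disc, after 12 hours under a graft of lateral head mesoderm from embryos at stage HH6. The control samples were the area opaca from the opposite, ungrafted side. All hosts were at stage HH4- when grafted, and the graft was removed by dissection before the epiblast was taken. The comparison asks which transcripts change as placode progenitors are induced by the mesoderm, with 3 induced and 3 control samples on 1 Affymetrix array each. The number of embryos behind a sample was not given, so p-values reflect the spread between these 6 samples, whatever its source.

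Secreted FGFs bind receptor tyrosine kinases at the cell surface together with heparan sulphate, and the receptors pass the signal on through RAS, RAF and the ERK kinases. The chain ends in the nucleus on ETS transcription factors of the PEA3 group, and it switches on inhibitors of itself such as the Sprouty proteins and DUSP6. In the chick head, FGF signals are known to take part in placode induction. FGF8, FGF3 and FGF19 have been placed among the signals of the mesoderm and neighbouring tissues that act on ectoderm. FGF12 and FGF13 are homologous factors that stay inside the cell, where they bind voltage-gated sodium channels in neurons and do not act as classical ligands.

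None of the 9 genes differed between induced and control epiblast after adjustment over all probe sets. The largest differences were in single probe sets of FGFR2 and FGFR3, by at most 0.55 on the log2 scale. FGFR3 was lower in 3 of its 4 probe sets and FGFR2 higher in 4 of its 5. By the probe set of highest mean, FGF2 and FGF13 differed more, both by -0.36, against 0.32 for FGFR2 and -0.21 for FGFR3. The probe sets of the secreted ligands FGF3, FGF8 and FGF19 gave signals near the floor of the array in both groups. Of the 20 probe sets, 14 passed the filter on low signals, which left out a mean below 4.50 on the log2(signal + 16) scale, and 6 did not. Of those 14, 0 passed at an adjusted p under 0.05 (limma, Benjamini-Hochberg over 22614 probe sets), where 22 of all those tested, or 0.0973%, passed. At an unadjusted p under 0.05 in limma there were 2 of the 14, both of FGFR3 and both lower in induced epiblast. The share over all probe sets was 9.76% in either direction, 5.01% lower and 4.74% higher. The median log2 fold change of the 14 was -0.05, with 6 above and 8 below 0. Over all probe sets tested the median was 0.01, and 51.7% lay above 0. FGFR2 and FGFR3 each gave 4 of the 14. Counted by gene, each by its probe set of highest mean, 6 members were kept, 2 above and 4 below 0, with a median of -0.13. Of these 6, 1 had an unadjusted p under 0.05 in limma, against 11.6% of all genes. The number of arrays limits the precision, so the 95% interval of each difference is given below.

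Both arrays of repeat 1 were brighter than the other 4, with a median of 18.35 units in induced sample 1 and 17.7 units in control sample 1, against 7.5 to 9.6 units elsewhere. Signals were therefore quantile normalized, and values without a unit are normalized log2(signal + 16). These log2 values of the probe sets kept correlated at 0.973 to 0.981 between induced arrays, at 0.965 to 0.976 between control arrays and at 0.951 to 0.982 between the groups. CDH1, which encodes the epithelial E-cadherin, was strongly measured in both groups, at 10.97, 10.81 and 10.76 in induced samples 1 to 3, against 10.88, 10.85 and 10.79 in control samples 1 to 3. Where a gene had several probe sets they are numbered here from the highest mean over the 6 arrays to the lowest, and levels are compared only within a probe set.

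FGFR3 is one of the receptor tyrosine kinases that bind FGFs, and its first 3 probe sets were all lower on average in induced epiblast. Set 1 gave 11.02, 10.79 and 10.81 in induced samples 1 to 3, against 11.17, 11.09 and 10.99 in control samples 1 to 3. The groups overlapped by a narrow margin, since induced sample 1 lay above control sample 3. The log2 fold change was -0.21 (SE 0.0912, 95% interval -0.41 to -0.01, limma adjusted p = 0.496). Set 2 gave 8.88, 8.36 and 9.16 in the induced samples, against 9.17, 9.41 and 9.40 in the controls. Here each induced value lay below each control value, the only such case among the 14, while 14.4% of all probe sets tested had groups that did not overlap and 6.65% had the induced group lower. Its log2 fold change was -0.53 (SE 0.199, 95% interval -0.97 to -0.08, limma adjusted p = 0.422), a fold of 0.695. An exact two-sided permutation test of this probe set gave p = 0.1, the smallest that 3 against 3 arrays allow.

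FGFR3 set 3 gave 8.28, 7.49 and 8.33 in the induced samples, against 8.75, 8.61 and 8.25 in the controls. Induced sample 2 stood well below the other 5 arrays. The difference was -0.51 (SE 0.244, 95% interval -1.05 to 0.04, limma adjusted p = 0.551). Without induced sample 2 the differences of sets 2 and 3 were -0.31 and -0.23, so that much of their size came from this array. In the pair of bright arrays the 3 sets differed by -0.15, -0.29 and -0.46, and in the 4 dimmer arrays by -0.24, -0.64 and -0.53. Set 4 was weak, with at most 21.4 units on an array, and did not share the direction of the others. It gave 4.86, 4.84 and 5.00 in the induced samples, against 4.84, 4.49 and 4.47 in the controls, a difference of 0.30 (SE 0.165, limma adjusted p = 0.639). The 4 probe sets of FGFR3 thus disagreed on direction, and the set that differed from the rest was the weakest.

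FGFR2, a second receptor of the family, was higher on average in induced epiblast in 4 probe sets, with wide overlap. Set 1 gave 9.86, 10.04 and 9.33 in induced samples 1 to 3, against 9.63, 9.16 and 9.48 in control samples 1 to 3. The log2 fold change was 0.32 (SE 0.194, 95% interval -0.12 to 0.75, limma adjusted p = 0.679). Induced samples 1 and 2 were above all controls and induced sample 3 below the control mean of 9.42. Set 2 gave 9.54, 9.49 and 8.62 in the induced samples, against 9.68, 8.20 and 8.84 in the controls. The highest array of all 6 was a control here, and the difference of 0.31 (SE 0.353, 95% interval -0.48 to 1.10) was smaller than the SD of either group, 0.52 in induced and 0.74 in control samples.

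FGFR2 set 3 gave 5.90, 6.42 and 5.96 in the induced samples, against 5.86, 5.51 and 6.08 in the controls, a difference of 0.28 (SE 0.225, limma adjusted p = 0.783). Set 4 gave 5.88, 6.67 and 5.93, against 5.93, 5.18 and 5.70. Its log2 fold change of 0.55 (SE 0.273, 95% interval -0.06 to 1.16) was the largest of any member probe set in size, with a limma adjusted p of 0.57. Induced sample 2 was the highest array and control sample 2 the lowest in sets 1, 3 and 4. In the pair of bright arrays the 4 sets differed by 0.23, -0.14, 0.04 and -0.06, and in the 4 dimmer arrays by 0.36, 0.54, 0.40 and 0.86. Without induced sample 2, the differences of sets 1, 3 and 4 were 0.17, 0.11 and 0.30, and without induced sample 3 that of set 1 was 0.52. Without control sample 2 the difference of set 2 was -0.04. Set 5 did not pass the filter and never exceeded 9.5 units.

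The summed signal of head and lateral mesoderm markers varied across the arrays in part as FGFR2 did. Of the 17 listed genes 16 had a probe set and 10 were kept. Their summed signal after normalization was 1795.5, 1811.7 and 832.4 units in induced samples 1 to 3, against 1101.5, 259.5 and 1431.9 units in control samples 1 to 3. The sum was dominated by few genes. In induced sample 1, FOXC2 and PRRX1 gave 1427.7 and 952.5 of the 3051.8 units summed before normalization. Taken singly, 5 of the 10 kept genes had a log2 fold change above 0 and 5 below. FOXC2, a forkhead factor of mesoderm, gave 9.76, 9.68 and 8.12 in the induced samples and 8.11, 5.16 and 9.23 in the controls. Control sample 2 had the lowest sum, as it had the lowest value in FGFR2 sets 1 to 4, but it was the lowest array in only 5 of the 10 kept markers taken singly. Induced sample 3 had the lowest sum of its group, as it had the lowest value of its group in FGFR2 sets 1 and 2. The listed markers differed in signal, since TBX1 and FOXF1 reached at most 8.7 and 10.7 units on any array, against 952.5 units for PRRX1 and 221.5 units for TWIST1. The part of such cells in the FGFR2 values was not tested, and in bulk tissue fewer cells of a type and less RNA per cell cannot be told apart.

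FGFR1, a receptor known from neural and mesodermal tissue of the early embryo, had 1 probe set. It gave 5.49, 5.77 and 5.26 in induced samples 1 to 3, against 5.87, 5.35 and 5.46 in control samples 1 to 3. The groups overlapped fully, and the difference was -0.06 (SE 0.214, 95% interval -0.53 to 0.42, limma adjusted p = 0.97). Between the arrays of repeat 1 the difference was -0.39, and over the other 4 arrays it was 0.11. As a fold, the interval ran from 0.691 to 1.34, so a larger change of this probe set in either direction lies outside it.

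**Figure D1:**
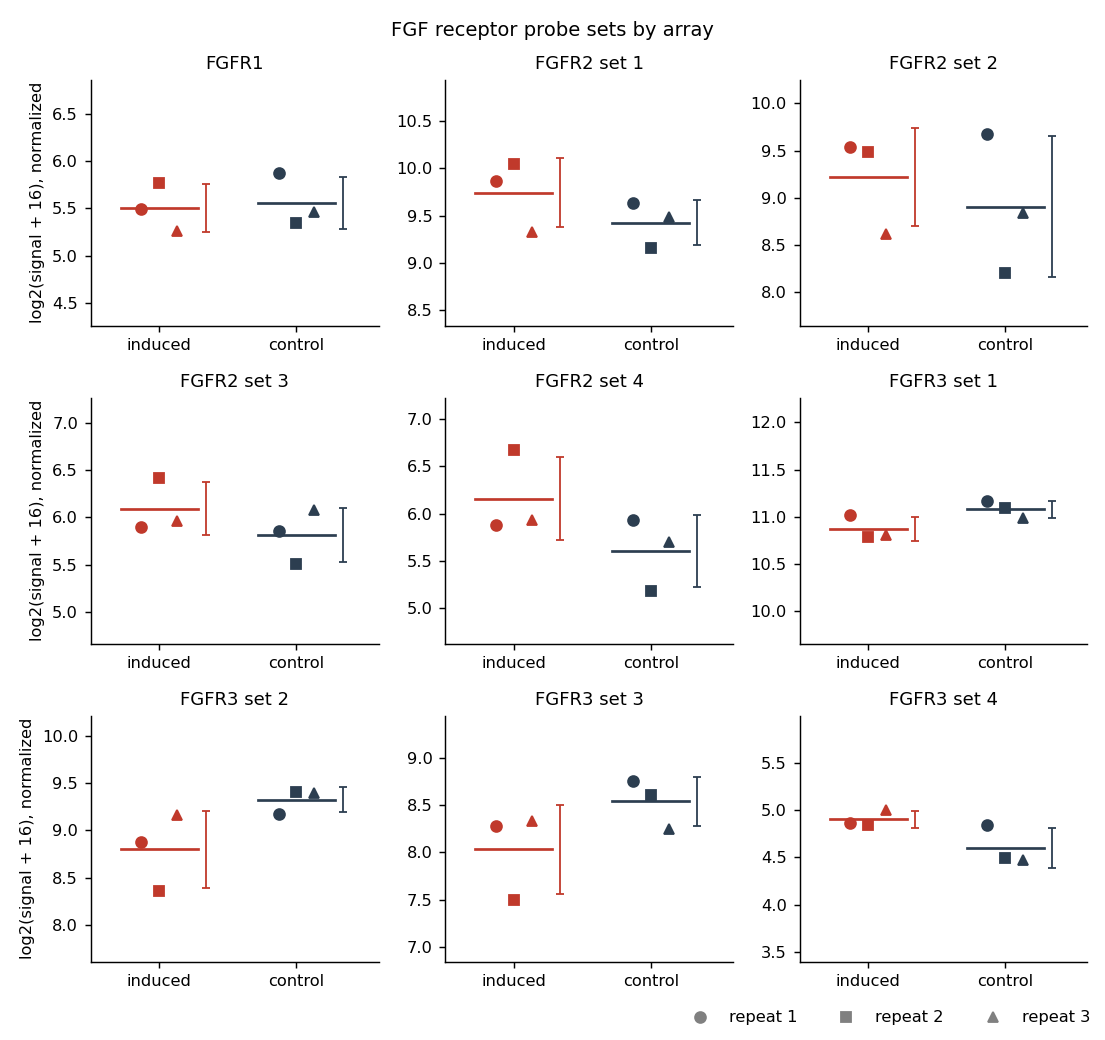
Values of the 9 receptor probe sets that passed the filter, on the log2(signal + 16) scale after normalization (vertical axes, each with its own range), in the 3 induced and the 3 control arrays. Points are arrays (marker shape gives the repeat), bars the group means and error bars 1 SD; the groups do not overlap in FGFR3 set 2 alone, and induced sample 2 is the lowest array in FGFR3 sets 2 and 3 and the highest in FGFR2 sets 1, 3 and 4.

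FGF3, FGF8 and FGF19, the secreted ligands, were near the floor in both groups. FGF8 gave 0.9, 12.1 and 0.4 units in induced samples 1 to 3, against 1.4, 2.5 and 4.2 units in control samples 1 to 3. Only induced sample 2 stood above the rest, and it too was under 16 units, as were 60.7% of the probe sets on that array. FGF19 gave 1.3, 2.5 and 0.3 units in the induced samples, against 4.1, 0.3 and 1.9 units in the controls. The 2 probe sets of FGF3 reached at most 4.9 and 3.4 units. Neither group stood apart in any of them.

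These 4 probe sets and the weakest ones of FGF13 and FGFR2 had no place in the main test, because their means lay below the filter. In a limma fit with no filter over 37690 probe sets their log2 fold changes ran from -0.09 to 0.10, and the adjusted p of the 6 was 0.883 to 0.991. The one for FGF8 was 0.10 (SE 0.231, 95% interval -0.41 to 0.62). The added 16 units compress differences between signals this low, so that these intervals hold on that scale and do not bound the change of the transcript. Detection calls were not used here, and a difference in these transcripts was not detectable at this signal.

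**Figure D2:**
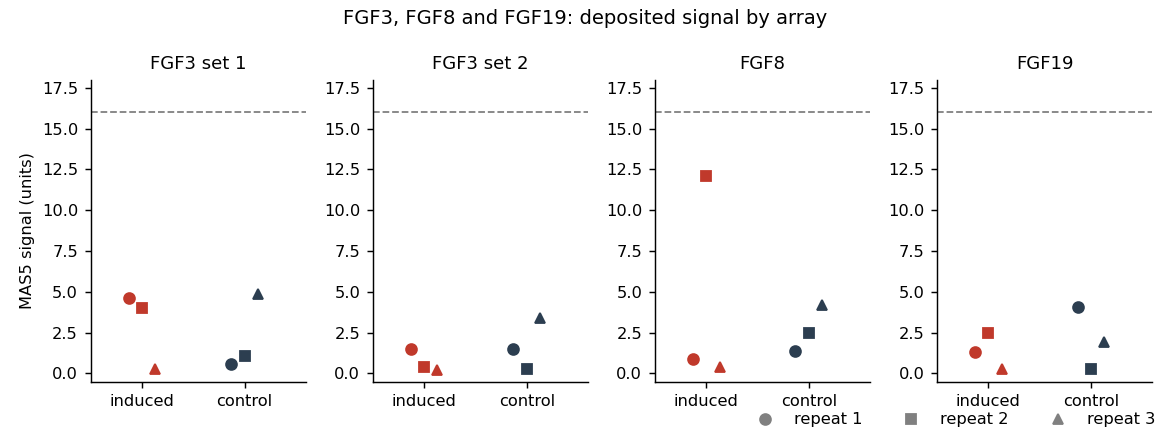
Deposited MAS5 signals (units, vertical axis, before normalization) of the probe sets of FGF3, FGF8 and FGF19 in the 3 induced and the 3 control arrays. Each point is 1 array, with marker shape giving the repeat; the dashed line marks the 16 units added before taking logs, and all points lie under it, the highest being FGF8 in induced sample 2 at 12.1 units.

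FGF2, basic FGF, is a ligand that leaves the cell without a classical signal peptide. Its probe set gave 6.19, 6.02 and 5.95 in induced samples 1 to 3, against 6.41, 6.75 and 6.08 in control samples 1 to 3. Induced samples 2 and 3 lay below all controls and induced sample 1 did not. The log2 fold change was -0.36 (SE 0.217, 95% interval -0.85 to 0.12, limma adjusted p = 0.67). It was -0.20 without control sample 2, the highest array.

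FGF12 gave 7.71, 7.52 and 7.95 in induced samples 1 to 3, against 7.64, 7.37 and 7.48 in control samples 1 to 3. Induced samples 1 and 3 lay above all controls, but by little beside the SDs of 0.21 in induced and 0.14 in control samples. The log2 fold change was 0.23 (SE 0.187, 95% interval -0.18 to 0.65, limma adjusted p = 0.779), and 0.12 without induced sample 3. FGF12 was thus measured well above the filter in epiblast of both groups.

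FGF13, the other homologous factor, had 4 probe sets, of which 3 were kept. Set 1 gave 6.02, 6.24 and 6.18 in the induced samples, against 6.60, 5.97 and 6.94 in the controls. The SD was 0.11 in induced and 0.49 in control samples, and control sample 2 lay below every induced array. The log2 fold change was -0.36 (SE 0.253, 95% interval -0.92 to 0.21, limma adjusted p = 0.732). It was -0.63 without control sample 2 and -0.14 without control sample 3. Sets 2 and 3, with at most 19.5 units on an array, differed by -0.04 (SE 0.211) and -0.25 (SE 0.221). The difference of set 3 was -0.02 without control sample 3, -0.11 without induced sample 1 and -0.42 without control sample 2, and -0.60 and -0.09 with 1 and 64 units added in place of 16.

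Control sample 3 was the highest array in all 3 kept FGF13 sets. It was also the array with the most signal from yolk sac endoderm and hypoblast, the tissues under the epiblast. The 15 marker genes with a probe set summed to 2924.6, 2504.0 and 2649.6 normalized units in induced samples 1 to 3, against 4400.2, 3415.8 and 6711.9 units in control samples 1 to 3. The match did not extend to control sample 2. Its sum was above that of every induced array, while its FGF13 set 1 value of 5.97 was below all of them. Of the list, 13 were kept, 2 above and 11 below 0, while 53.2% of all genes lay above 0. The median log2 fold change was -1.04. At an unadjusted p under 0.05 in limma, 8 were lower and 0 higher, against 6.02% and 5.61% of all genes. TTR and FABP1 had the lowest p, with log2 fold changes of -1.53 and -1.51 (limma adjusted p = 0.0957 and 0.125). FABP1 was near the floor in induced samples 1 to 3, at 13.7, 4.7 and 7.1 units, so the size of its change is uncertain. SERPINA1 counts among the 8, though its induced mean of 4.34 lay below the filter. RBP4 and FOXA1 reached at most 6.4 units on any array. The part of these cells in the FGF13 values was not tested.

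**Figure D3:**
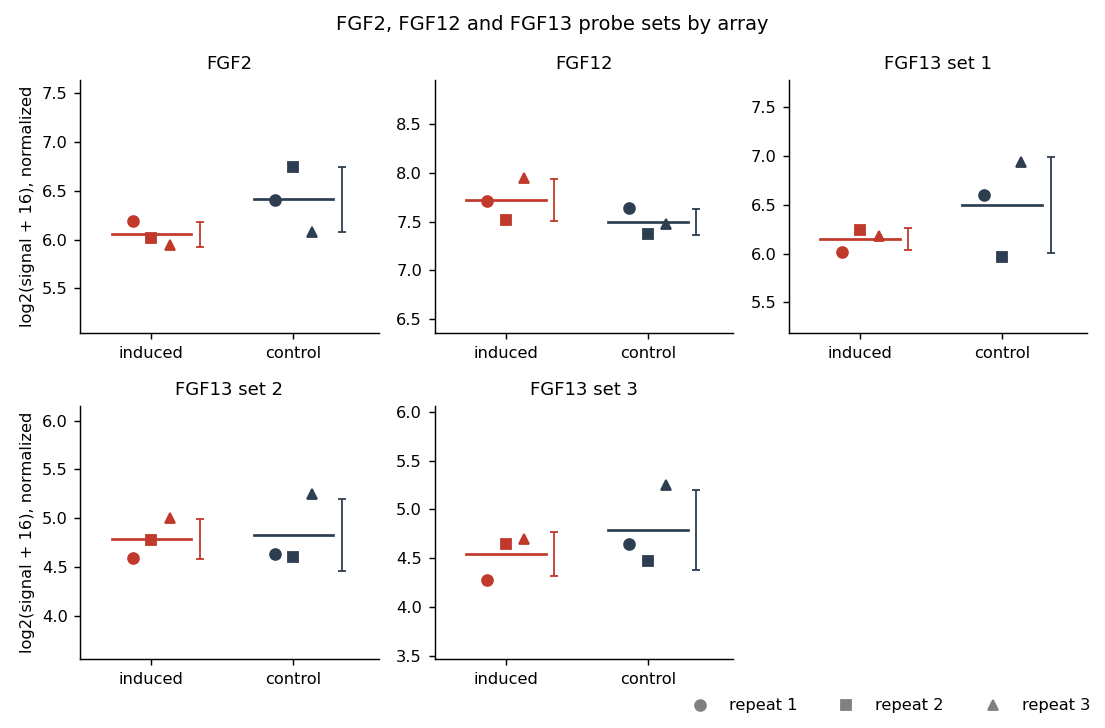
Values of the probe sets of FGF2, FGF12 and FGF13 that passed the filter, on the log2(signal + 16) scale after normalization (vertical axes, each with its own range), in the 3 induced and the 3 control arrays. Points are arrays, bars the group means and error bars 1 SD; the groups overlap in all 5 panels, and the FGF13 controls spread more than the induced samples.

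**Figure D4:**
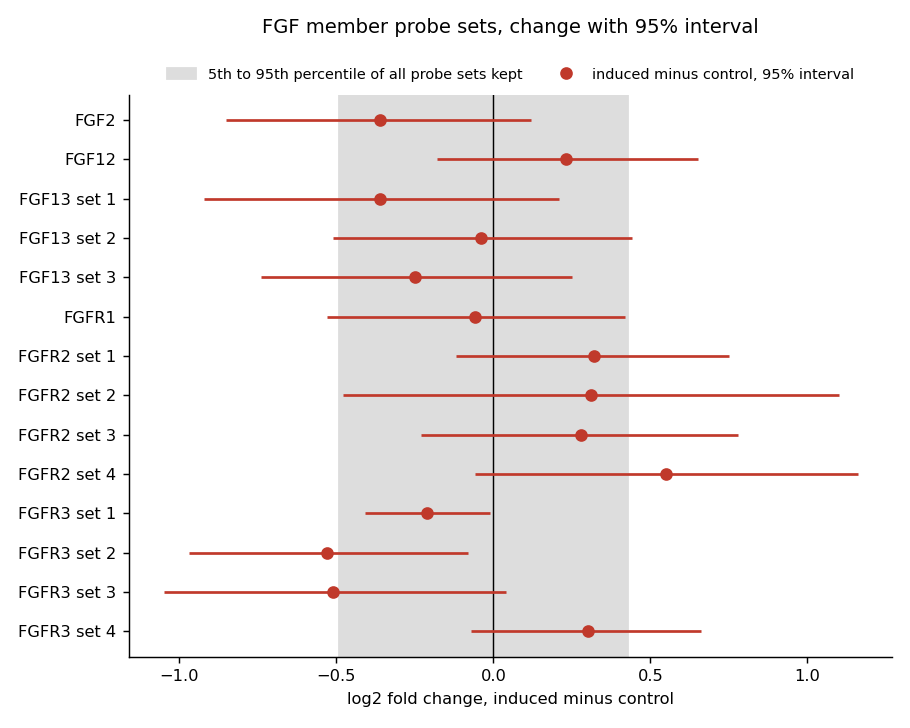
Log2 fold change, induced minus control (horizontal axis), of the 14 member probe sets that passed the filter, with the 95% interval of the limma fit. The grey band runs from the 5th to the 95th percentile of all 22614 probe sets tested, -0.49 to 0.43; FGFR3 sets 2 and 3 and FGFR2 set 4 lie outside it, and the intervals of FGFR3 sets 1 and 2 alone leave out 0.

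No member's leading probe set changed by 1 or more on the log2 scale, so no genes with a like pattern were sought. Of 19 other listed ligands, receptors and binding proteins 16 had a probe set and 6 were kept. Their median log2 fold change was -0.05, and 0 passed the adjusted threshold in limma. At an unadjusted p under 0.05 there was 1 of the 6, against 11.6% of all genes in either direction. The lowest p was that of FGFBP1, a secreted carrier that frees FGFs from heparan sulphate. It gave 4.82, 4.29 and 4.57 in induced samples 1 to 3, against 5.54, 5.91 and 5.47 in control samples 1 to 3. The groups did not overlap, while 6.65% of all probe sets tested had the induced group lower without overlap. The log2 fold change of FGFBP1, -1.08 (SE 0.201), had a limma adjusted p of 0.0974. FGFBP1 was near the floor in induced samples 1 to 3, at 20.1, 2.5 and 5.4 units. Its induced mean of 4.56 was only just above the filter level, so the size of its change is uncertain. FGF10 at 0.28, FGF1 at 0.26 and FGFBP2 at -0.19 on the log2 scale followed. All were weak, with at most 28.8, 29.7 and 28.7 units on an array, and the control mean of FGF1, 4.45, lay below the filter. FGF4 and FGF20 were below the filter with at most 3.4 and 1.6 units.

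The next list held 19 genes for heparan sulphate proteoglycans, enzymes that make or modify them, the secreted protein ANOS1 and the Klotho co-receptors. Of these 18 had a probe set and 16 were kept. The median log2 fold change was 0.09. At an unadjusted p under 0.05, 4 were higher and 1 lower, and 0 passed after adjustment in limma. The lower gene was SULF2, which encodes a sulphatase, at -0.55 (limma adjusted p = 0.47). Over all 10118 genes tested, each by its probe set of highest mean, 11.6% had an unadjusted p under 0.05, 5.61% higher and 6.02% lower. The lowest p belonged to HS6ST2 and HS6ST1, which add sulphate to the 6-O position of heparan sulphate. HS6ST2 gave 10.16, 10.25 and 9.94 in the induced samples, against 9.58, 9.33 and 9.50 in the controls, a difference of 0.65 (SE 0.126, limma adjusted p = 0.117). HS6ST1 gave 7.58, 7.48 and 7.27, against 6.86, 6.03 and 6.48, a difference of 0.98 (SE 0.236, limma adjusted p = 0.188). In both genes every induced array lay above every control array. This held for 4 of the 16 kept genes of the list, and 1 had every induced array below. Over all probe sets tested, 14.4% had groups that did not overlap in either direction. The core proteins GPC3 and GPC1 had differences of 0.97 and 0.27, with limma adjusted p of 0.412 and 0.455.

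Of 22 listed transducers between receptor and nucleus 18 had a probe set and 16 were kept, 8 above and 8 below 0, with 0 past the adjusted threshold in limma and 2 lower at an unadjusted p under 0.05, near the 11.6% of all genes in either direction. PIK3R1, a regulatory subunit of PI 3-kinase, differed by -0.70 and SOS1, an exchange factor for RAS, by -0.40, with limma adjusted p of 0.445 and 0.503. GAB1, a docking protein, differed by -0.49 and MAP2K2, an ERK kinase, by 0.24. FRS2, the adaptor that couples the receptors to RAS, was below the filter with at most 9.0 units.

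The target and feedback genes had the highest median change of the 5 pathway lists. Of 19 listed 18 had a probe set and 16 were kept, 12 of them above 0, against 53.2% of all genes, with a median log2 fold change of 0.24. At an unadjusted p under 0.05, 6 were higher and 1 was lower, against 5.61% and 6.02% of all genes, and 0 passed after adjustment in limma. ETV5, a PEA3-type ETS factor, gave 9.38, 9.28 and 8.82 in induced samples 1 to 3, against 8.41, 7.70 and 7.91 in control samples 1 to 3. No control reached an induced value, while 14.4% of all probe sets tested had groups that did not overlap in either direction. The log2 fold change of ETV5 was 1.15 (SE 0.22, limma adjusted p = 0.109). In limma it was 1.33 with adjusted p = 0.0482 without induced sample 3 and 1.35 with 0.0436 without control sample 1. With any other single array left out ETV5 did not pass, nor did it in the 4 dimmer arrays. DUSP14, a phosphatase, differed by 0.62 and ETV4, another PEA3-type factor, by 0.68, with adjusted p of 0.158 and 0.308 in limma. ETV4 was near the floor, at 25.6, 15.8 and 3.4 units in induced samples 1 to 3, against 7.5, 0.3 and 0.7 units in the controls. Its mean of 4.51 only just passed the filter, and its control mean of 4.17 lay below it. The size of its change is thus uncertain, though it counts among the 6 higher genes. EGR1, an immediate early gene, went the other way with -1.06 (limma adjusted p = 0.22). The list was compiled with earlier results for ETV5 and ETV4 known, and is no independent evidence of a direction.

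Beside these lists, markers of blood and endothelium were lower in the induced arrays, with a median of -1.07 on the log2 scale over 15 genes. At an unadjusted p under 0.05 in limma 12 were lower and 0 higher, against 6.02% and 5.61% of all genes. The 12 include SPI1, whose induced mean of 4.23 lay below the filter. At an adjusted p under 0.05 in limma 7 of all 10118 genes fell and 12 rose. Of the blood and endothelium list 3 fell (TAL1, KDR and LMO2). These calls depended on single arrays, with 0 genes of the list passing without induced sample 1, induced sample 2 or control sample 3, 1 without control sample 2 and 6 without induced sample 3. None of the list passed in limma without normalization or in the 4 dimmer arrays. With either other filter, no variance trend, or each array centred on its median, 3 of the list passed. Their summed normalized signal was 1305.1, 695.8 and 1893.9 units in induced samples 1 to 3, against 3304.0, 3756.3 and 3405.6 units in control samples 1 to 3. Of the mesoderm markers, NKX2-5, a homeobox gene of the heart field, rose by 1.90 (limma adjusted p = 0.0197), the only one of its 10 kept genes to pass. In limma 0 of the 10 passed without induced sample 1, induced sample 2, control sample 2 or control sample 3. None passed without normalization or in the 4 dimmer arrays, and 2 passed without induced sample 3. GATA4 had the next lowest p of that list and went the other way, by -0.67 (limma adjusted p = 0.217). GATA4 was near the floor in induced samples 1 to 3, at 5.7, 6.1 and 5.1 units. In control samples 1 to 3 it gave 40.6, 12.2 and 14.5 units. Its induced mean of 4.48 lay below the filter, so the size of its change is uncertain. The part of these tissues in the values of the FGF pathway genes was not tested.

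**Figure D5:**
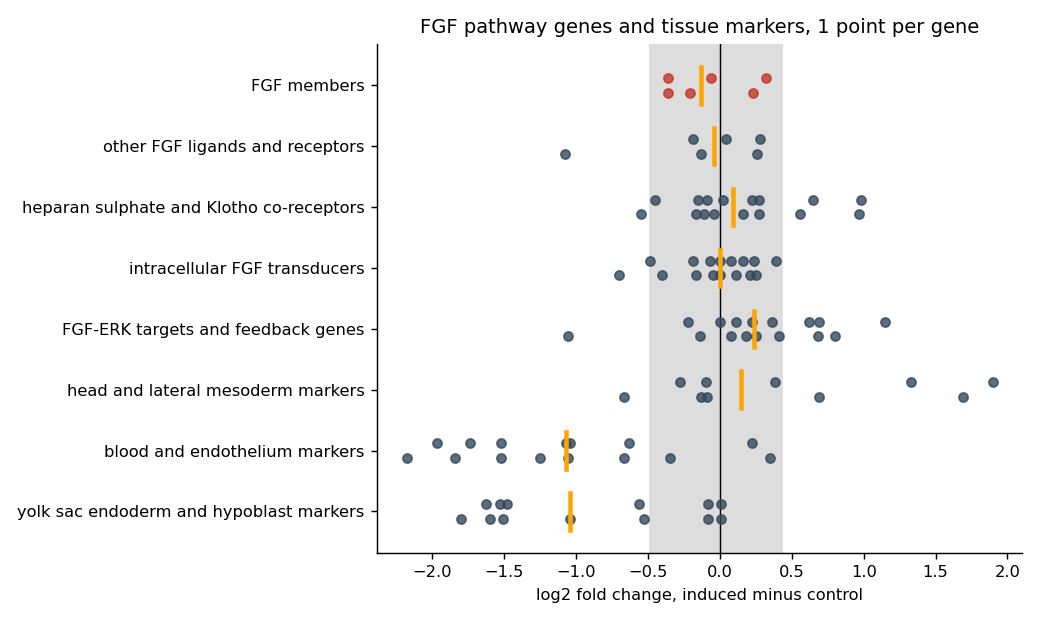
Log2 fold change, induced minus control (horizontal axis), of the genes of 5 FGF pathway lists and 3 lists of tissue markers (rows), 1 point per gene (its probe set of highest mean). Orange bars are list medians and the grey band the 5th to 95th percentile of all probe sets tested; the 6 kept FGF members lie between -0.36 and 0.32, inside the band, while blood and yolk sac endoderm markers centre near -1.07 and -1.04.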

How the data were processed

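The authors deposited linear intensities, 1 for each probe set of an array. MAS5 is named in the submitters' processing notes, without version or scaling target. The table had 6 columns of samples and 0 others. On each array 46.9% to 63.7% of the probe sets gave under 16 units. These intensities were taken as log2(signal + 16) and quantile normalized between arrays, and probe sets with a mean below the 40th percentile were left out, which kept 22614. The test was that of limma 3.58.1, run in R 4.3.3 (variance trend, group as the only term, two-sided), adjusted by Benjamini-Hochberg over all probe sets kept, with a threshold of 0.05. The procedure was tested on simulated data. Fold changes understate those of weak genes. Quantile normalization removes a shift of most genes. Symbols came from GEO's platform annotation, updated by Entrez number through RefSeq genes of assembly GRCg7b. Of all probe sets 27166 had 1 symbol, 177 several and 10347 none. Each listed gene other than a member is represented by the probe set of highest mean. Probe sets ending in _a_at can match several transcripts of a gene, and those ending in _s_at or _x_at related sequences.

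All member probe sets were named, and of each further pathway list up to 4 genes with the lowest p. Of the marker lists any gene past the threshold was named. CDH1, FOXC2, CYP26C1, GATA4, TTR, TBX1, RBP4 and others, some near the floor, were added after their values were seen. Members and lists were chosen with earlier results of these data known. Germ cell, epiblast and axial mesendoderm marker lists are summarised in the closing section. Alternatives were 2 other pseudocounts, 2 filters, 3 normalizations, no variance trend, the repeat number as a block, each array left out, and the 4 dimmer arrays alone.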

Additional observations from a re-analysis of the deposited data

How the results depend on the processing

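In each of 17 alternatives 0 member probe sets passed, with 0 to 4 at an unadjusted p under 0.05 in limma. Directions held in these except in 3 probe sets, FGFR1 (-0.06 in the reported setting), FGF13 set 2 (-0.04) and FGFR2 set 2 (0.31). With single arrays left out, FGFR1 ranged from -0.19 to 0.10 (0.07 without induced sample 3, 0.10 without control sample 1), and it was 0.10 in the 4 dimmer arrays. FGF13 set 2 ranged from -0.15 to 0.18 (0.06 without induced sample 1, 0.18 without control sample 3) and FGFR2 set 2 from -0.04, without control sample 2, to 0.70. Over all probe sets 22 passed in the reported setting, 12 without normalization between arrays, 5 in the 4 dimmer arrays and 2 to 110 when single arrays were left out. These were 5, 2 and 110 without induced samples 1, 2 and 3, and 35, 12 and 10 without control samples 1, 2 and 3. Of the other ligands and receptors 0 passed in any of these runs. Of the FGF-ERK target list 0 to 1 passed when single arrays were left out, the 1 being ETV5. The cause of these differences was not tested. With the repeat number as a block 26 probe sets passed. With the same block and no normalization 587 passed, 1 of them among the other ligands and receptors (FGFBP1) and 3 among the target genes (ETV4, ETV5 and EGR1). Same-numbered samples deviated together in repeat 1 (r = 0.55 across probe sets) but not in repeats 2 and 3 (-0.15 and 0.07). Some samples of unlike number also did, with r = 0.40 for induced sample 3 and control sample 2. For induced sample 2 and control sample 3 r was 0.23, and the other unlike pairs ran from -0.45 to -0.04. Whether same-numbered samples shared hosts was not stated, and these correlations cannot settle it. The numbers were not taken as pairs in the reported setting. With so many signals near the floor, FGF3, FGF8 and FGF19 cannot be compared, and 3 arrays a group leave member intervals as wide as -0.48 to 1.10 on the log2 scale.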

Other observations

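Within each array the leading probe sets of FGFR2 and FGFR3 can be set against their own control means. The log2 change of FGFR2 minus that of FGFR3 was 0.49, 0.91 and 0.17 in induced samples 1 to 3, against 0.12, -0.27 and 0.15 in control samples 1 to 3. The means were 0.52 ± 0.37 in induced and 0.00 ± 0.24 in control samples (SD, n = 3 each), and induced sample 3 was within 0.02 of control sample 3. This pair was chosen after its values were seen, and no test was made.

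Induced sample 2 held the highest or lowest value in several genes of the pathway. It had the highest FGFR2 values in sets 1, 3 and 4 and the highest SPRY2 and IL17RD values. Its FGFR3 values were the lowest in sets 1 to 3, in set 1 only by 10.79 against 10.81 in induced sample 3. ETV5 was highest in induced sample 1, at 9.38 against 9.28 in induced sample 2. The FGF8 signal of 12.1 units in this array was near the floor and cannot be compared. SPRY2, a Sprouty inhibitor, gave 7.43 there, against 6.63 and 6.32 in induced samples 1 and 3 and 5.98 to 6.18 in the controls. IL17RD, a membrane inhibitor of FGF receptors also known as SEF, gave 7.07, against 6.08 and 5.49 in the other induced samples and 5.17 to 5.77 in the controls. CYP26C1 is a gene of retinoic acid breakdown on the head mesoderm list. It gave 6.98 in induced sample 2, against 5.82 and 4.54 in induced samples 1 and 3 and 4.25 to 4.72 in the controls. CYP26C1 was near the floor elsewhere, at 5.0 units in induced sample 3 and 16.5, 3.0 and 2.7 units in control samples 1 to 3. Its control mean of 4.45 lay below the filter, so the size of its difference is uncertain. Induced sample 2 was singled out after its values were seen.

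Among the remaining marker lists, the 5 germ cell genes had a median log2 fold change of 0.02, the 10 epiblast and surface ectoderm genes with a probe set one of 0.24, and the 5 kept axial mesendoderm genes one of 0.31. In limma 0 genes of these lists passed after adjustment. At an unadjusted p under 0.05 there were 2 of 5, 3 of 10 and 0 of 5, against 11.6% of all genes in either direction. The germ cell median covers opposite changes, with PIWIL1 at -1.29 (limma adjusted p = 0.0957) and DND1, with at most 22.1 units, at 0.59. The control mean of DND1, 4.27, lay below the filter. The size of the DND1 change is thus uncertain, though it counts among the 2 of 5. On the epiblast list, 8 genes lay above 0 and 2 below, while 53.2% of all genes lay above 0. OTX2 was the highest at 2.08 (limma adjusted p = 0.124).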
